A study of Mus musculus with 360 samples.

Results

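The cells described here were the CD51+;CD200+ cells with reads of Ibsp, the gene of integrin-binding sialoprotein, a phosphorylated protein of mineralizing bone matrix. A cell was a member if at least 500 genes had a read, if it held at least 10000 reads with those of the ribosomal transcript Rn45s included, at least 10 reads of Ibsp and fewer than 5 reads of Col2a1, the cartilage collagen. Of 360 cells in all, 325 passed the limits on genes and reads, and 57 of these were members (17.5%, exact 95% interval 13.6% to 22.1%). They were set against the 252 passing cells with 0 reads of Ibsp. The limit on Col2a1 did not apply to these, and 180 of them had fewer than 5 Col2a1 reads. Levels were compared within the same plate, whereas numbers of cells with a read are given over all 8 plates unless the 4 compared plates, with 45 members and 115 other cells, are named. Of the 252 cells, 137 came from SAG and GP, against 12 of the 57 members. The members were thus chosen by measured reads of Ibsp and Col2a1, and the values of these 2 genes describe the choice and are no finding.

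The cells came from wild-type CD-1 mice at postnatal day 3, with no transgene and no treatment in any group. They were taken from 3 fibrous joints of the skull vault, the coronal suture (COR), the posterior frontal suture (PF) and the sagittal suture (SAG), each dissected together with the bone fronts, mesenchyme, dura and periosteum at the joint, and from the growth plate (GP) of the tibia. The sort was for single cells with CD51 and CD200 and without CD45, Ter119, Tie2, the Thy1 proteins, 6C3 and CD105, so endothelial and blood cells had been gated out. Each tissue had 2 plates, 1 table of read counts per plate, and no animal was named for any cell. Each tissue was therefore 1 sample, the plates gave the only spread, and because the cells had been split by what was read in them, no test was made and no p-value is given.

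Osteoblasts are the cells that build bone. They arise from mesenchymal progenitors under the transcription factors Runx2 and Sp7 (osterix), lay down a matrix that is mostly type I collagen, and then express alkaline phosphatase (Alpl), Ibsp, osteopontin (Spp1) and osteocalcin (Bglap) as that matrix mineralizes. Some become embedded in bone as osteocytes, which express Dmp1, Phex and, when mature, Sost. Ibsp is also expressed by hypertrophic chondrocytes, the enlarged cartilage cells of the growth plate, which is why the limit on Col2a1 was part of the rule.

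Ibsp, Dmp1, Mepe, Dspp and Spp1 are neighbours on chromosome 5 of the mouse, where they form a family of small integrin-binding matrix genes that spans 270.3 kb of the plus strand in the build of the files (NCBIM37, mm9). Ibsp lies at chr5:104728190-104740488, Dmp1 at chr5:104631632-104643121 and Spp1 at chr5:104864137-104870069. Bglap, at chr3:88187423-88188386 on the minus strand, is not part of this cluster. The 250 bases before the start of the defining gene and of the 2 other bone matrix genes among its markers are shown as listed by RefSeq for GRCm38.p6, a later build than that of the files. They are written 5′ to 3′ on the strand of each gene, and capitals mark every match, on either strand, to short motifs. These are TGTGGT, the core bound by RUNX proteins, ATTGG, which is a CCAAT box read on the other strand, and TTTATA. Read on the other strand, the last is a run like the box at which transcription of many tissue genes is set. A match to it on the opposite strand therefore places that box on the strand of the gene. The windows are chr5:104299037-104299286 for Ibsp, chr5:104434861-104435110 for the first of 2 listed starts of Spp1 and chr3:88384467-88384716 for Bglap.
Ibsp: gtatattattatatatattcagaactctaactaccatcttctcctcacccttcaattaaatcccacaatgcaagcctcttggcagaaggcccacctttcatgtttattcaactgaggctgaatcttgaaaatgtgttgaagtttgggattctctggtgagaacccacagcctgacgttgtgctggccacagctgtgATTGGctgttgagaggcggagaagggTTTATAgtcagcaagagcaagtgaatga
Spp1: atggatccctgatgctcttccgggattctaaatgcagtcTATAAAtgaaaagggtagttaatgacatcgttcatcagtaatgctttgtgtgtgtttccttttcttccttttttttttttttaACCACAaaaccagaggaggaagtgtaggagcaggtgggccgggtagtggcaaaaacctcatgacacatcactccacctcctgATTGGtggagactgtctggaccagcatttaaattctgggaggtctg
Bglap: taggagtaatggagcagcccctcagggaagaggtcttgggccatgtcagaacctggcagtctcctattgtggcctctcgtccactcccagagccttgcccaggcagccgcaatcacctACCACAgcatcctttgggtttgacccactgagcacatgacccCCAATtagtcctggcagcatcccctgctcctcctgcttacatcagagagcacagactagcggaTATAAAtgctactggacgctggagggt
The Ibsp window held ATTGG beginning 54 bases and TTTATA 28 bases before the start, both on the strand of the gene, and no TGTGGT. The Bglap window held all 3 on the opposite strand, with TGTGGT at 132, ATTGG at 90 and TTTATA at 27 bases. In the Spp1 window TGTGGT lay at 128 bases on the opposite strand and ATTGG at 46 bases on the strand of the gene, and the TTTATA match lay farther out, at 211 bases. Of 32851 promoters of the same length, 14% held TGTGGT, 33.9% ATTGG and 12.4% TTTATA, so each motif is common among promoters and a match is a description only.

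The Ibsp cells were spread unevenly over the tissues. PF held 26 among 87 passing cells (29.9%, 20.5% to 40.6%) and COR 19 among 74 (25.7%, 16.2% to 37.2%), whereas SAG held 7 among 86 (8.14%, 3.34% to 16.1%) and GP 5 among 78 (6.41%, 2.11% to 14.3%). The limit on Col2a1 removed cells from GP alone. Without it GP held 13 among 78 (16.7%, 9.18% to 26.8%), and its interval overlapped those of PF and COR. Both PF plates lay near the share of the tissue, with 32.4% on plate 1 and 28.3% on plate 2. The COR plates did not, with 9 of 16 cells (56.3%, 29.9% to 80.2%) on plate 1 and 10 of 58 (17.2%, 8.59% to 29.4%) on plate 2. The shares of PF and COR thus overlapped within counting error, and COR plate 2 also overlapped both SAG plates, at 13.3% and 5.36%. Intervals are exact binomial ones and cover counting error only, since reads were not counted as molecules and cells are not animals.

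**Figure D1:**
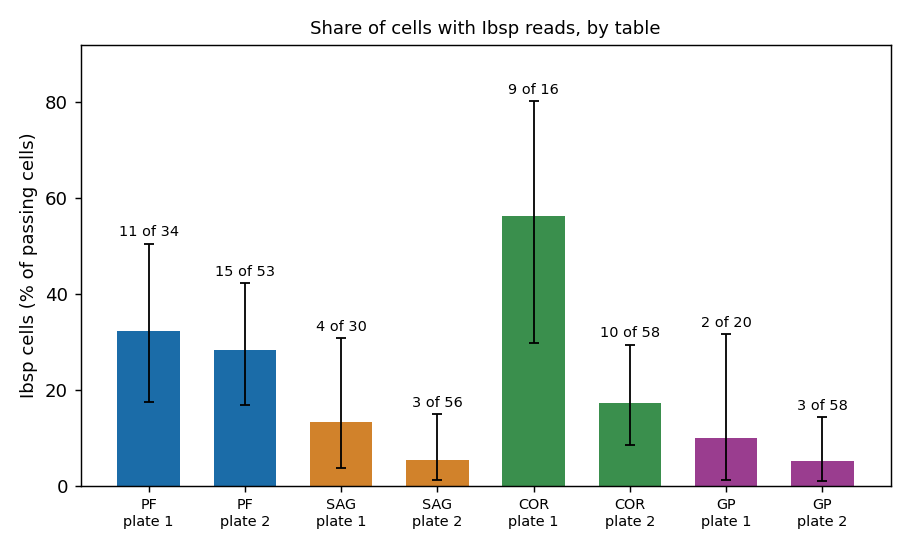
Share of passing cells that met the Ibsp rule, in percent, for each of the 8 plates (vertical axis from 0, bars with exact 95% binomial intervals). COR plate 1 stands highest at 56.3%, with an interval of 29.9% to 80.2%, and SAG plate 2 and GP plate 2 stand lowest at 5.36% and 5.17%.

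Few cells lay near the limit. The lowest Ibsp counts among members were 14, 18, 20, 23 and 25 reads, the median was 915 and the highest 13053. The 8 passing cells with 1 to 9 Ibsp reads had at most 3, and they entered neither class. Among members 56 had no Col2a1 read and 1 had a single read. The limit on Col2a1 removed 8 cells, each of them from GP plate 2, of which the lowest had 8, 56 and 497 Col2a1 reads.

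Over all plates the classes had similar medians of depth. Members held a median of 293076 reads other than Rn45s (3628 to 938318) and 2764 genes with a read, and the cells without Ibsp reads held 259469 reads and 2722 genes. Within plates the members were the deeper class on 3 of the 4 plates compared below, with medians of 226015 against 121612 reads on PF plate 1, 638174 against 487448 on PF plate 2, 239140 against 144425 on COR plate 1 and 461533 against 516632 on COR plate 2. SAG plate 2 stood apart from all other plates, with Rn45s at 88.7% of the reads of its members and 86.6% of those of its other cells, against 18.8% to 32.2% in either class elsewhere, except the GP plate 1 members at 85.8%. Plates with at least 5 cells of each class, namely PF plates 1 and 2 and COR plates 1 and 2, were therefore compared, and neither SAG nor GP entered that comparison. In that order they held 11, 15, 9 and 10 members and 22, 38, 7 and 48 other cells. On COR plate 1 a single cell gave 23.9% of the reads of the 7 others. Levels are given in CPM, that is, counts scaled to 1000000 reads other than Rn45s and summed over the cells of a class on a plate, and ratios as log2 of Ibsp cells over cells without Ibsp reads after adding 1 CPM to each level.

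A gene was called higher or lower if its ratio had the same sign on all 4 plates and a median of at least 1 on the log2 scale, that is, 2-fold. Of 9173 genes with at least 10 CPM on average in either class, 166 were called higher (1.81% of the genes tested) and 1395 lower (15.2%). The median ratio over all tested genes was -0.61, and 2107 genes had a median above 0. Much of the members' sequence went to few transcripts. Spp1 alone took up to 72.6% of the reads of a single member and at least 10% in 18 of 57, and Col1a1 took at least 10% in 26. With TMM factors, which rescale each class by the bulk of its genes, 253 genes were higher and 995 lower, and with Spp1, Col1a1, Col1a2 and Sparc left out of the totals 353 were higher and 849 lower, so higher calls made up 10.6%, 20.3% and 29.4% of all calls under these 3 scalings. The median of all genes moved to -0.33 and -0.17. With each cell thinned to 100000 reads, 111 of the 166 higher and 1079 of the 1395 lower genes were still called.

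The label was checked first. Of the 4 marker genes besides Ibsp, the members had more Spp1, Bglap and Sp7, and the call failed for Alpl. Spp1 was at 150629 and 64683 CPM in PF plates 1 and 2 and 127697 and 189473 CPM in COR plates 1 and 2, and in the cells without Ibsp reads at 35.9, 283, 18.2 and 16342 CPM on the same plates. The ratio was wide on 3 plates and narrowest on COR plate 2, where the other cells held Spp1 as well, and its median was 9.91 (mean 9.02 ± 4.24, SD, n = 4 plates). Levels of the classes did not overlap, as the lowest plate of members stood above the highest plate of other cells. Bglap was at 3179 and 3744 CPM in PF plates 1 and 2 and 45.6 and 6599 CPM in COR plates 1 and 2 in members and at 4.09, 159.5, 22.5 and 253 CPM in the others, with a median ratio of 4.62 (mean 4.88 ± 3.4, SD, n = 4 plates). COR plate 1 was the exception within Bglap, since the summed level of its 9 members lay below that of the other cells of PF plate 2 and of COR plate 2. Sp7, the osteoblast transcription factor osterix, had a median ratio of 1.32 (mean 1.32 ± 0.89, SD, n = 4 plates), and leaving out either PF plate gave a median of 0.59 and ended the call. Alpl, which makes phosphate available for mineral, had reads in 44 of 57 members (77.2%) and in 125 of 252 other cells (49.6%). On the compared plates these were 38 of 45 (84.4%) and 87 of 115 (75.7%), and in COR alone 15 of 19 (78.9%) and 45 of 55 (81.8%). Its summed level was at 958 and 1394 CPM in PF plates 1 and 2 and 1973 and 946 CPM in COR plates 1 and 2 in members and 1668, 700.5, 1476 and 1005 CPM in the others, and its median ratio was 0.17 (mean 0.13 ± 0.76, SD, n = 4 plates). The cells are therefore called Ibsp cells here, and 3 of the 4 other markers passed for them.

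The genes that mark osteoblasts late in matrix formation were higher in the Ibsp cells. The list of 6 such genes held Bglap, Bglap2, Ifitm5, Dmp1, Phex and Smpd3, of which 5 were called higher and 0 lower, where 1.81% of all genes were called higher. Its summed level had a median ratio of 4.83 (mean 4.67 ± 0.94, n = 4 plates), against the median of -0.61 over all genes. Ifitm5, a membrane protein of osteoblasts also known as BRIL, was at 643 and 887 CPM in PF plates 1 and 2 and 961 and 379 CPM in COR plates 1 and 2 in members and at 104, 98.4, 129 and 4.99 CPM in the others, with a median ratio of 3.02 (mean 3.66 ± 1.57, SD, n = 4 plates). It was read in 38 of 57 members (66.7%, 52.9% to 78.6%) and 14 of 252 other cells (5.56%, 3.07% to 9.15%), and on the compared plates in 33 of 45 and 12 of 115. Smpd3, the neutral sphingomyelinase needed for bone mineral to form normally, had a median ratio of 3.52 (mean 3.74 ± 1.25, SD, n = 4 plates) and was read in 33 members and 19 others. Bglap2, the second osteocalcin gene, had a median ratio of 4.17 (mean 4.45 ± 3.67, SD, n = 4 plates). Bglap and Bglap2 share 292 runs of 50 bases, 74.7% of those in Bglap transcripts and 69.2% of those in Bglap2 transcripts. The split of reads between them is therefore uncertain, and their calls may not be separate.

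Genes of the osteocyte differed among themselves. Dmp1, an acidic matrix protein of osteocytes, was at 3883 and 4090.5 CPM in PF plates 1 and 2 and 756 and 2972 CPM in COR plates 1 and 2 in members and at 0, 0, 0 and 12.4 CPM in the others, with a median ratio of 10.74 (mean 10.32 ± 2.03, SD, n = 4 plates). On the 3 plates where the others had no read, the size of the ratio rests on the 1 CPM added. It was read in 22 of 57 members (38.6%, 26% to 52.4%) and in 3 of 252 other cells (1.19%, 0.25% to 3.44%), on the compared plates in 17 of 45 and 1 of 115, and a single cell gave 50.8% of the Dmp1 reads of the members on the compared plates. Phex, the endopeptidase that is lost in X-linked hypophosphataemia, was read in 15 members and 2 other cells. It was not called, because on PF plate 1 it was at 0 in both classes, and on the other 3 plates it was higher in members, with a median over the 4 of 5.53 (mean 4.37 ± 2.98, SD, n = 4 plates). Mepe, another matrix gene of the chromosome 5 cluster, was read in 3 members and 0 other cells, which allows a share of up to 1.19% among the latter. Sost and Dspp were listed at 0 in all 360 cells, as was the widely expressed glycolysis gene Eno1, so a listed 0 does not by itself show absence. Of all genes, 1.81% were called higher and 15.2% lower. Of the 9 osteocyte genes tested, 2 were higher, Dmp1 and the Wnt inhibitor Dkk1, and 3 were lower. These were Pdpn (podoplanin, a marker of early osteocytes; median -2.40), Cd44 (a hyaluronan receptor; -1.02) and Mmp14 (a membrane-bound collagenase; -1.20), which progenitors and fibroblasts express too. Each of these 3 lost the call under TMM factors, Cd44 at -0.71, Mmp14 at -0.75 and Pdpn at -2.22 with unequal signs among the plates.

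**Figure D2:**
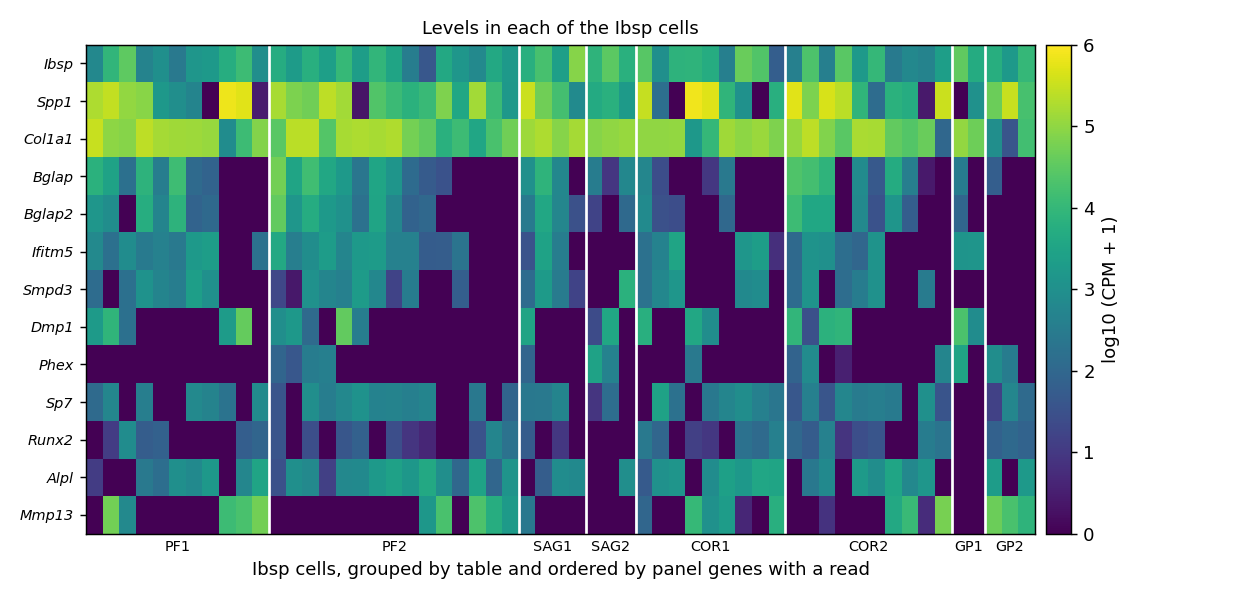
Level of 13 genes in each of the 57 Ibsp cells, as log10(CPM + 1) in colour from dark (0) to bright, with 1 column per cell, grouped by plate and ordered within it by how many of the 6 late osteoblast genes had a read. Ibsp and Col1a1 are filled in every column, Spp1 in 53, and Dmp1, Phex and Mmp13 in scattered cells of several plates.

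The matrix genes did not move as a block. Among 20 tested genes for type I collagen and its assembly, Col1a1 was higher and the cross-linking enzyme Loxl1 lower, beside the 1.81% and 15.2% of all genes. Col1a1 was at 162272 and 128489 CPM in PF plates 1 and 2 and 86809 and 102590.2 CPM in COR plates 1 and 2 in members and 71702, 50814, 48083 and 53461 CPM in the others, with a median ratio of 1.06 (mean 1.08 ± 0.22, SD, n = 4 plates), and every member had reads of it. Leaving out either PF plate gave a median of 0.94, under the limit, and so did thinning to 100000 reads (0.87), the mean of per-cell CPM (0.84) and leaving out the deepest cells (0.85). Col1a2 had 0.77 (mean 0.79 ± 0.16, SD, n = 4 plates), positive on each plate and under the 2-fold limit. Loxl1 had -2.73 (mean -2.77 ± 0.79, SD, n = 4 plates) and was read in 14 of 57 members and 169 of 252 others. Serpinh1, P4hb and Plod1, which fold and modify procollagen, had medians of 0.38, -0.09 and -0.64. Of 11 tested non-collagen matrix genes, 5 were higher (Spp1, Bglap, Bglap2, Ifitm5 and Dmp1) and 3 were lower. Mgp, matrix Gla protein, an inhibitor of calcification, was at 3.73 and 6.48 CPM in PF plates 1 and 2 and 9.12 and 31.6 CPM in COR plates 1 and 2 in members and at 881, 1520.5, 378 and 831 CPM in the others, with a median of -6.38 (mean -6.28 ± 1.55, SD, n = 4 plates). The classes were apart on every plate. Ogn (osteoglycin) and Bgn (biglycan), small proteoglycans, had medians of -3.18 and -1.45.

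Mineralization genes formed a mixed group of 10 tested, with 3 higher and 0 lower, beside 1.81% and 15.2% of all genes. Besides Smpd3 these were Enpp1, which makes pyrophosphate (median 2.16, mean 2.25 ± 0.97 SD, n = 4 plates), and Fam20c, the kinase that phosphorylates secreted matrix proteins (median 5.37, mean 4.94 ± 2.71 SD, n = 4 plates). Fam20c was at 93.2 and 60.8 CPM in PF plates 1 and 2 and 186 and 234 CPM in COR plates 1 and 2 in members and 0, 21.1, 0 and 12 CPM in the others, and on these plates it was read in 13 of 45 members and 7 of 115 others. Ank, a pyrophosphate transporter, had a median of 2.46 (mean 2.23 ± 1.98, SD, n = 4 plates) with unequal signs among the plates, and the phosphate transporter Slc20a2 had -1.06 (mean -2.14 ± 4.17, SD, n = 4 plates).

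Of 9 tested osteoblast transcription factors, 2 were higher and 0 lower, beside 1.81% and 15.2% of all genes. Dlx3, a homeobox gene of bone and teeth, had 1.85 (mean 2.13 ± 1.41, SD, n = 4 plates), and Sp7 is given above. Runx2, the factor that commits cells to the lineage, was not called higher in members by its level. It was read in 36 of 57 members (63.2%) and 107 of 252 others (42.5%), on the compared plates in 31 of 45 and 54 of 115. Its level stood at 31.3 and 29.3 CPM in PF plates 1 and 2 and 145 and 126 CPM in COR plates 1 and 2 in members and 72.4, 68.6, 89.1 and 76 CPM in the others, with ratios of -1.18 and -1.20 on the PF plates and 0.70 and 0.72 on the COR plates. The direction of its level thus differed between the tissues, and this difference was not tested. Creb3l1, a stress sensor of collagen-secreting cells, had 0.98 (mean 0.88 ± 0.40, SD, n = 4 plates) and just missed the limit. The 26 secretory pathway genes gave 0 higher and 1 lower, Creb3l2 at -1.40, and a list ratio of -0.08.

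**Figure D3:**
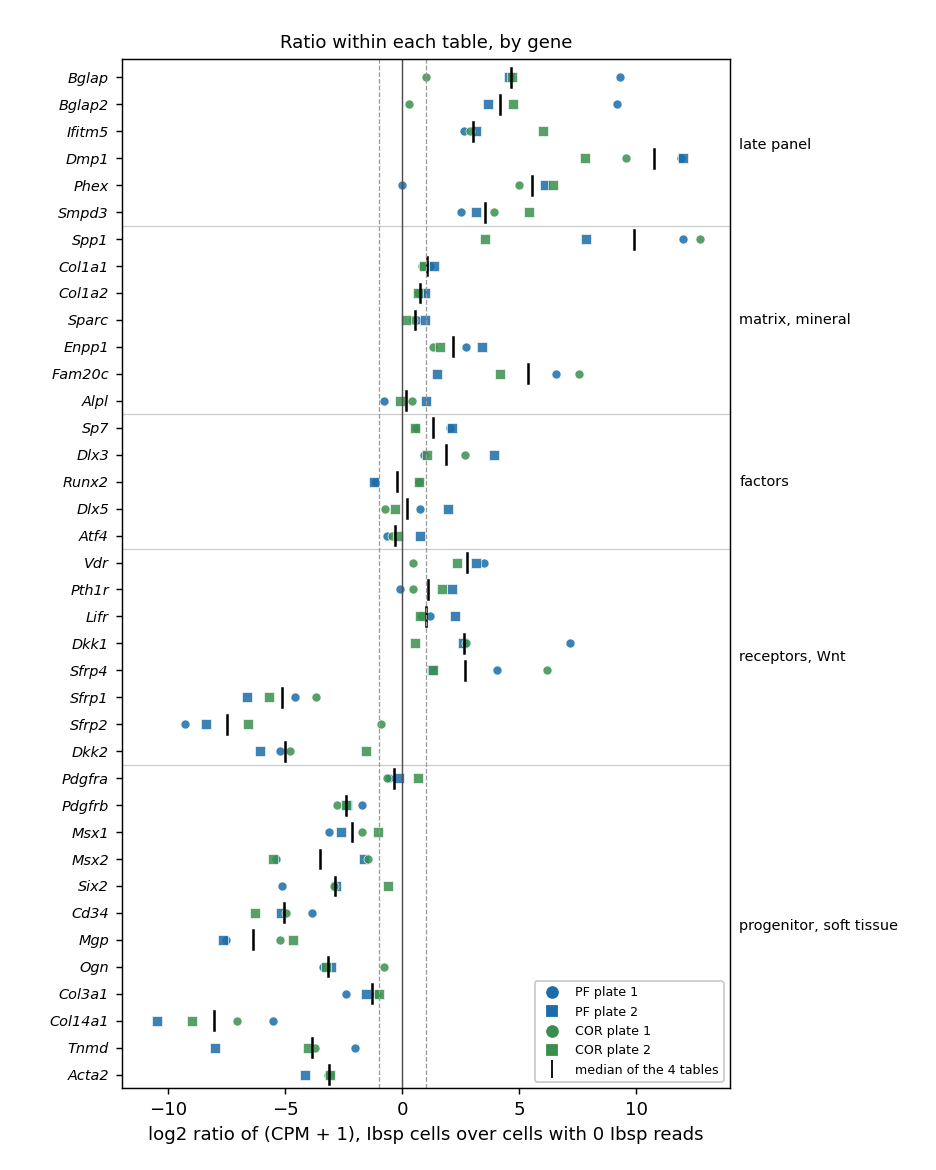
Log2 ratio of Ibsp cells over cells without Ibsp reads for late osteoblast, matrix, transcription factor, signalling, progenitor and soft tissue genes, with 1 point per compared plate (PF plates 1 and 2, COR plates 1 and 2) and a bar at the median (dashed lines at -1 and 1). Points of Dmp1, Bglap and Ifitm5 lie right of 0 on all 4 plates, those of Mgp and Cd34 left of 0, and those of Runx2 on both sides.

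Genes of skeletal and suture progenitors were lower. Of 15 tested, 0 were higher and 8 lower (15.2% of all genes were lower), and the list ratio had a median of -1.47 (mean -1.59 ± 0.44, n = 4 plates). Cd34, a surface protein of progenitor and endothelial cells, was at 3.36 and 0 CPM in PF plates 1 and 2 and 0 and 0 CPM in COR plates 1 and 2 in members and 62, 35.6, 30.3 and 79 CPM in the others, and was read in 1 of 57 members and 38 of 252 others (median -5.08). The homeobox genes Msx1 and Msx2, which act in early skull growth, had medians of -2.17 and -3.52, and Six2 of -2.88. Gli1, a target of hedgehog signalling that marks suture stem cells, had -3.73 and was read in 5 of 57 members (8.77%) and 20 of 252 others (7.94%), on the compared plates in 4 of 45 and 18 of 115. Pdgfrb, a growth factor receptor, had -2.40 and Postn, the matrix protein periostin, -1.35, which became -0.95 with TMM factors and was no longer called. Ly6a, the gene of Sca-1, was at 0 in members and read in 11 other cells. Both Gli1 and Ly6a lost the call with cells of at least 1500 genes and 50000 reads (-3.74 and -4.0) and on thinning (-3.84 and -3.81). Prrx1 and Pdgfra, broad mesenchymal genes, had medians of -0.45 and -0.35 and did not pass. Lepr and Cxcl12, which mark stromal cells of the marrow, had medians of -3.67 and -2.71 with unequal signs among the plates.

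Signalling genes split within their lists, and their counts stand beside 1.81% of all genes called higher and 15.2% lower. Of 12 receptors tested, 2 were higher. Vdr, the vitamin D receptor, was at 145 and 336 CPM in PF plates 1 and 2 and 85.5 and 206 CPM in COR plates 1 and 2 in members and 12, 36.7, 63.2 and 39.8 CPM in the others (median 2.75, mean 2.36 ± 1.37 SD, n = 4 plates), and was read in 37 of 57 members and 22 of 252 others. Lifr, a receptor chain for leukaemia inhibitory factor, had 1.00 (mean 1.25 ± 0.70, SD, n = 4 plates), at the limit itself, and lost the call under 8 of the alternatives, among them leaving out either PF plate (0.81), thinning to 100000 reads (0.74) and leaving out the deepest cell of each class and plate (0.86). Vdr lost it on thinning (2.31), without the deepest cells (1.99) and with the mean of per-cell CPM (2.23). Pth1r, the receptor of parathyroid hormone, had 1.07 (mean 1.04 ± 1.06, SD, n = 4 plates) and was not called, because 1 plate did not share the sign. Of 9 inhibitors of Wnt signalling, 2 were higher and 4 lower. Dkk1 was at 142 and 114 CPM in PF plates 1 and 2 and 112 and 16.7 CPM in COR plates 1 and 2 in members and 0, 18.1, 16.4 and 11.3 CPM in the others, and Sfrp4 had a median of 2.68 (mean 3.19 ± 2.37, SD, n = 4 plates). Without the deepest cells Dkk1 was no longer called (1.67). In contrast, Sfrp1 and Dkk2 were at 0 in all 57 members, which allows a share of up to 5.26%, and were read in 43 and 22 of the other cells. On the compared plates Sfrp1 was at least 390-fold lower and Dkk2 at least 174-fold lower in the pooled members, taking 3 reads over the group as the floor. Such bounds, here and below, cover counting error only, because reads copied by PCR are not independent molecules. On thinning, Dkk2 was no longer called (-3.35). Sfrp2 and Dkk3 had medians of -7.50 and -1.70. The list as a whole had a median of 0.21 with plates from -1.75 to 2.10. Of 6 Wnt response genes, 0 were higher and Nkd1 was lower (-4.16), and of 3 signals to osteoclasts none passed. No cell cycle gene of 17 passed in either direction, and Mki67, a marker of dividing cells, was read in 7 members (12.3%, 5.08% to 23.7%) and 15 others (5.95%, 3.37% to 9.63%), on the compared plates in 6 of 45 and 10 of 115. Glycolysis gave 0 higher and 1 lower of 13, with a list median of -0.31. The single lower genes of the Wnt response and glycolysis lists lie near or under the share of all genes.

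Markers of other cells that the dissection could contain moved with the contrast, mostly downward, where 15.2% of all genes were called lower and 1.81% higher. Fibroblast genes gave 0 higher and 4 lower of 8, led by Col14a1 (a collagen of fibrous tissue) at -8.04 (mean -8.03 ± 2.17, SD, n = 4 plates). Tenocyte genes gave 3 lower of 4, with Scx, Tnmd and Fmod at -3.66, -3.88 and -2.53. Pericyte and smooth muscle genes gave 2 lower of 7, Acta2 at -3.14 and Tagln at -4.50. Summed over its list, each of these was at a lower CPM in members on each compared plate. The fibroblast level ran from 8624 to 18619.8 CPM on the compared plates in members and from 21769 to 32570.4 CPM in the others. The tenocyte level ran from 407 to 1001 CPM and from 1624 to 6090.5 CPM, and the pericyte level from 76.8 to 226 CPM and from 466 to 1599 CPM. The members thus were compared with cells of which some carried fibrous tissue transcripts, and the part of that make-up in the contrast was not tested.

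Cartilage markers did not run together, and their counts too stand beside 1.81% of all genes called higher and 15.2% lower. Of 9 chondrocyte genes tested, 3 were lower, Acan (-2.38), Sox6 (-3.36) and Hapln1 (-2.97), and 1 was higher. The limit on Col2a1 held for members alone, so lower cartilage genes may in part describe that choice. With the other cells held to the limit too, 1303 of all 1395 lower genes were still called. Hapln1 lost the call under TMM factors (-2.69), with the 4 abundant genes left out of the totals (-2.58) and without the deepest cells (-1.38). The higher gene, Col11a2, a minor fibrillar collagen chain, was at 182 and 285 CPM in PF plates 1 and 2 and 188 and 208 CPM in COR plates 1 and 2 in members and 11.3, 13.9, 7.79 and 1.1 CPM in the others (median 4.34, mean 4.80 ± 1.24 SD, n = 4 plates). Of the 5 hypertrophic chondrocyte genes, 3 were tested and all 3 were higher, namely Mmp13, Mef2c and Panx3, which osteoblasts express too. Panx3 was not called with the mean of per-cell CPM (0.78) or without the deepest cells (0.80), nor Mef2c on thinning (1.78). Mmp13, the collagenase of bone and hypertrophic cartilage, was at 17730.2 and 1855 CPM in PF plates 1 and 2 and 2465 and 5102 CPM in COR plates 1 and 2 in members and 245, 205, 90 and 807 CPM in the others (median 3.97, mean 4.19 ± 1.59 SD, n = 4 plates). Single cells gave 44.6% of its reads in the PF members and 75.5% in the COR members. With both plates pooled, Mmp13 was lower in SAG members, at 83.1 CPM (read in 1 of 7) against 2965 CPM (25 of 77). In GP it was higher in members, at 16291 against 509 CPM. Of the defining genes of the hypertrophic state, Col10a1 was read in 2 members and Ihh in 1. The limit on Col2a1 had removed 8 Ibsp cells of GP plate 2, of which 6 had Col10a1 reads. The low count of Col10a1 thus describes that choice in part. Endothelial markers had 0 reads in all 57 members. The haematopoietic, osteoclast, neural and adipocyte lists had 1 or 2 tested genes each, of which none passed. Of the sorted proteins, Cd200 was read in 40 of 57 members and 99 of 252 others and Itgav (CD51) in 23 and 97, on the compared plates in 32 of 45 and 48 of 115 for Cd200 and in 17 and 60 for Itgav, and neither passed. The immediate early list gave 1 higher of 9, Ier2 at 1.27 (mean 1.48 ± 0.56, SD, n = 4 plates), which was not called without the deepest cells (1.44). Alx1, 1 of 3 tested genes of head mesenchyme, was lower (-3.04), and hindlimb genes were at or near 0 in both classes of the sutures.

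**Figure D4:**
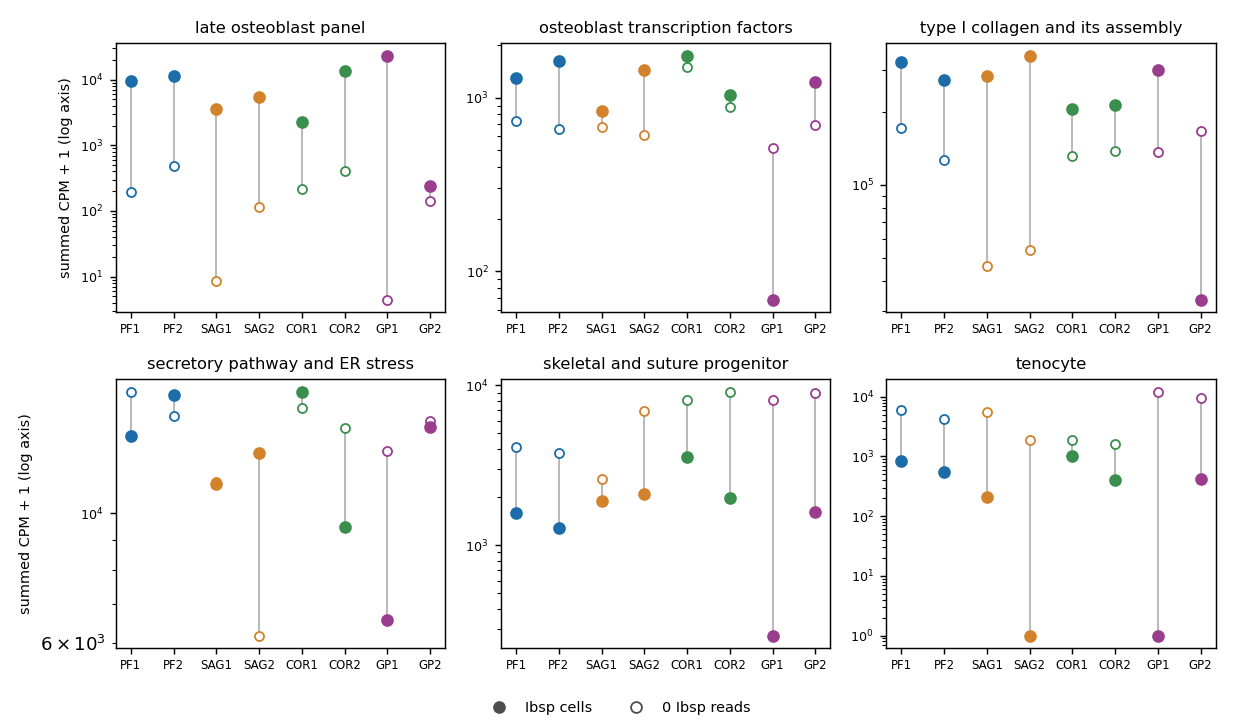
Summed level of 6 gene lists in Ibsp cells (filled) and in cells without Ibsp reads (open), as CPM + 1 on a log axis, with 1 pair of points joined by a line for each of the 8 plates, coloured by tissue. The late osteoblast list is higher in Ibsp cells on every plate, and the progenitor list is lower in them on every plate.

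Outside the lists, the genes that separated the classes most were again rare in the other cells. Enpp6, a choline phosphodiesterase, had 6.93 (mean 6.87 ± 0.70, SD, n = 4 plates) and was read in 20 of 57 members and 1 of 252 others. Col22a1, a collagen of tissue junctions, had 5.55 (mean 5.51 ± 1.44, SD, n = 4 plates) and was read in 27 members and 3 others. Enpp6 was at 134 and 200.2 CPM in PF plates 1 and 2 and 61.5 and 127 CPM in COR plates 1 and 2 in members, and the others had no read of it on 3 of these plates. Next came the sialyltransferase St3gal6 (5.01), Galnt3, which glycosylates and protects the phosphate hormone Fgf23 (4.67), the bone morphogenetic protein Bmp8a (4.28) and the phosphatase Ppm1e (4.09). Slc7a7, Map3k6, Megf10, Lipc, 1700066M21Rik, Ano1, Lpar6 and Tdrp had medians of 4.0, 3.97, 3.93, 3.79, 3.76, 3.71, 3.70 and 3.57. Kcnh2, a potassium channel, was at 0 in the other cells of the compared plates and at least 209-fold higher in the pooled members, but was read in only 4 members, 1 of which gave 43.1% of the reads. Its call was lost without PF plate 1 (3.79), with the mean of per-cell CPM (3.51) and with Rn45s counted in the total (3.41).

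Igf1, a growth factor, was the lowest of the genes outside the lists. It was at 34.7 and 0 CPM in PF plates 1 and 2 and 7.68 and 0 CPM in COR plates 1 and 2 in members and 1121, 1735, 1813 and 1354 CPM in the others (median -9.05, mean -8.46 ± 2.69 SD, n = 4 plates), and was read in 3 of 57 members and 136 of 252 others. Fbn1, fibrillin 1 of elastic microfibrils, was read in 3 members and 141 others (median -7.30). Apoe, the lipid carrier, had -7.05, and Igfbp3, a binding protein of insulin-like growth factors, -8.38. Itgbl1, Cpxm2, Cilp2, Il33, Fam180a and Itih5 had no read in the members of the compared plates, and Itgbl1, read in 89 of the 252 other cells, was at least 1918-fold lower. The bounds for the other 5 were at least 1831-fold, 1688-fold, 877-fold, 659-fold and 1130.2-fold lower in that order. Atp1b1, Egfl6, Shisa3, Sema3c and Foxp2 had medians of -8.13, -7.31, -7.27, -7.04 and -6.98. Among all called genes, 82 of 1395 lower ones had no read in members on the compared plates, and 2 of 166 higher ones had none in the others.

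The plates left out of the comparison were read for direction alone. On SAG plates 1 and 2 and GP plates 1 and 2, all 4 ratios had the same sign as the call for 6 of 166 higher genes and for 529 of 1395 lower genes. These plates held 2 to 4 members each, with 43.6% to 93.9% of a plate's member reads from 1 cell, and a gene with no read in those cells counted as not higher. Bglap was at 1048 and 353 CPM in the 4 and 3 members of the SAG plates and at 0.565 and 4.54 CPM in the others. Spp1 was at 161526 and 3898 CPM in the same members and at 327 and 80.9 CPM in the others. Both genes stood higher in members on both SAG plates, the second of which is the one with most reads in Rn45s. The GP plates were split. On GP plate 1 Bglap was higher in members (304 against 0.41 CPM) and Spp1 lower (67.7 against 563 CPM). On GP plate 2 Spp1 was higher in members (38359 against 12917 CPM) and Bglap lower (14.7 against 40.4 CPM).

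The growth plate members differed in value from those of the sutures. The 3 members of GP plate 2 all had Spp1 (18283, 46056 and 321141 CPM) and Mmp13 (8128, 19185 and 45770 CPM). Bglap was read in 1 of them, at 59.9 CPM, and Dmp1, Ifitm5 and Smpd3 in 0, and their Col1a1 ran from 37.4 to 15057 CPM, below the median of 95298 CPM over all members. Of the 8 cells of the same plate that the limit on Col2a1 removed, Spp1 was read in 8 with a median of 119176 CPM, Mmp13 in 7 and Bglap in 1. Col10a1, the collagen of hypertrophic cartilage, was read in 6 of these 8 with up to 173869 CPM, and in 1 of the 3 members at 486 CPM. The 2 members of GP plate 1 were shallow, with 3628 and 55494 reads, and had Dmp1 at 827 and 19930 CPM, Ifitm5 at 1378 and 1243 CPM, and no reads of Sp7 or Alpl. With 5 cells in all, no difference between growth plate and suture members was tested.

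Maturity varied widely among the members themselves. Of the 6 late osteoblast genes, a member had reads of a median of 4 (0 to 6), with 12 members at 5 or 6 and 4 at 0, against a median of 0 in the other cells, of which 198 of 252 had none. The 6 include both Bglap and Bglap2, which share much of their sequence, so reads of 1 may count for both. Thinned to 100000 reads, the 47 members that deep had a median of 3 and the 226 other cells 0. By plate the medians were 4 on both PF plates, SAG plate 1 and COR plate 2, 3 on SAG plate 2, 3.5 on GP plate 1, 2 on COR plate 1 and 1 on GP plate 2. COR plate 1 and GP plate 2 were thus the lower ones, and COR plate 1 was also the plate with the largest share of Ibsp cells.

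A pair of splits within the members, chosen after their values were seen and given as descriptions, shows how the late genes were distributed. The 22 members with Dmp1 reads had a median Spp1 of 172634 CPM and the 35 without 6615 CPM. The direction was the same on each of the 4 compared plates, with 286923 against 711 CPM on PF plate 1, 65172 against 12582 CPM on PF plate 2, 522866 against 612 CPM on COR plate 1 and 336959 against 5983 CPM on COR plate 2. Alpl ran the other way, read in 11 of the 22 members with Dmp1 (median 5.40 CPM) and in 33 of the 35 without it (1273 CPM), again in that direction on each compared plate. Ifitm5 and Smpd3 had no such direction on all 4 plates. Ifitm5 was read in 16 of 22 and 22 of 35 and Smpd3 in 12 of 22 and 21 of 35. The Ifitm5 median was lower with Dmp1 on PF plate 1 and COR plate 1 and higher on PF plate 2 and COR plate 2. Smpd3 had a median of 9.78 CPM with Dmp1 and 306 CPM without, lower with Dmp1 on PF plate 1 and both COR plates and higher on PF plate 2. These are medians of a split by any Dmp1 read, and single cells departed from them, as 1 member with Dmp1 had no Spp1 read and the median Alpl of 652 CPM in the 5 such members of PF plate 2 was not near 0. The members with Dmp1 had a median of 2258 genes against 3305 in those without. The part of Spp1 in the total of a cell, and of depth, in these values was not tested.

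Mmp13 marked another division. Among the 25 members with Mmp13 reads, Smpd3 was read in 5 and Ifitm5 in 10, and among the 32 without Mmp13, each was read in 28. Col22a1 was read in 6 and 21. Col1a1 had a median of 34433 CPM in the members with Mmp13 and 129343 CPM in those without, lower with Mmp13 on each compared plate. Smpd3 had a median of 0 in the members with Mmp13 on all 4 plates, and of 331 to 829 CPM in those without. Spp1 did not follow, since its median was higher with Mmp13 on PF plate 1 and COR plate 1 and lower on PF plate 2 and COR plate 2. The members with Mmp13 held a median of 263953 reads and those without 364891, and the part of this gap was not tested.

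**Figure D5:**
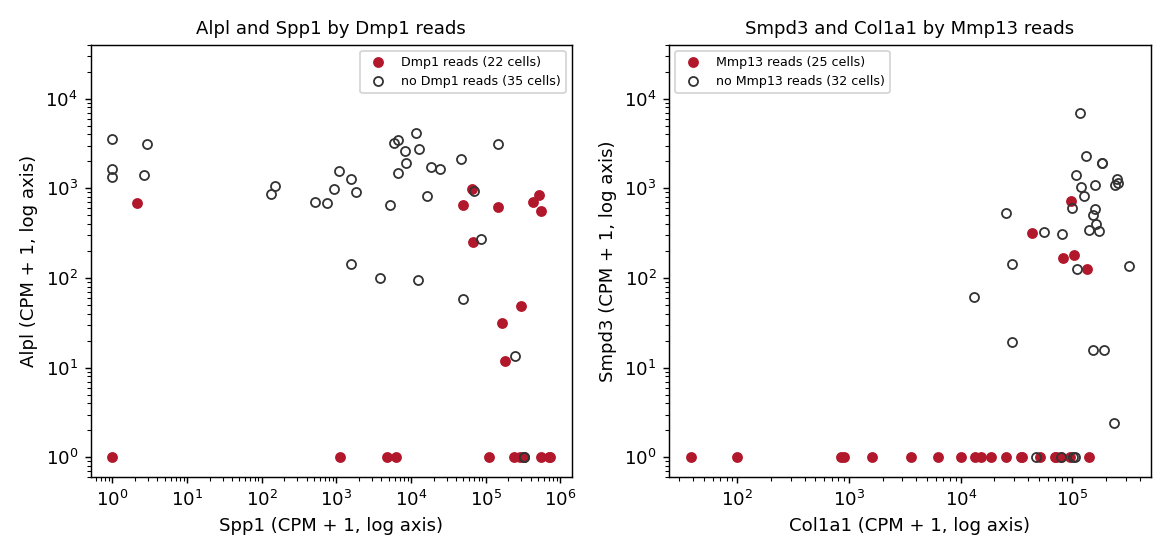
Alpl against Spp1 (left) and Smpd3 against Col1a1 (right) in the 57 Ibsp cells, as CPM + 1 on log axes, with 1 point per cell, filled where Dmp1 (left, 22 cells) or Mmp13 (right, 25 cells) had reads. Most filled points on the left lie at high Spp1, 11 of them at 0 Alpl, and 20 of the 25 filled points on the right lie at 0 Smpd3.

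The 26 PF and 19 COR members were then set against each other, a comparison of a suture that fuses early in life with another that does not. All 4 plate ratios had to share a sign with a median of at least 2-fold. Of 8327 genes tested, 728 were higher in PF (8.74%) and 1312 in COR (15.8%), with a median over all genes of -0.19 (log2, PF over COR). With 2 plates of each tissue and cells of unknown animals, tissue cannot be told apart from plate or animal. The late osteoblast list gave 1 of 6, Dmp1, which was at 3883 and 4090.5 CPM in PF plates 1 and 2 and 756 and 2972 CPM in COR plates 1 and 2 (median 1.41, range 0.39 to 2.43), and 71.3% of its PF reads came from 1 cell. Bglap went both ways, with plate ratios of -1.05 to 6.33. Of 20 genes for type I collagen and its assembly, 1 passed, Loxl2, higher in COR at -2.65. The other maturity lists gave 1 higher in PF and 3 in COR of 11 non-collagen matrix genes, 1 and 2 of 10 mineralization genes, 2 and 3 of 9 osteocyte genes and 0 and 1 of 9 transcription factors.

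Runx2 was at 31.3 and 29.3 CPM in PF plates 1 and 2 and 145 and 126 CPM in COR plates 1 and 2 (median -2.12, range -2.27 to -1.97), and the plates of the tissues did not overlap. Bmpr1a, a receptor of bone morphogenetic proteins, was at 12.3 and 14.5 CPM in PF plates 1 and 2 and 121 and 77 CPM in COR plates 1 and 2 (-2.76). Sfrp4 was at 126 and 21 CPM in PF plates 1 and 2 and 2795 and 531 CPM in COR plates 1 and 2 (-4.53), with 66.4% of its COR reads in 1 cell. The matrix genes Tnn, Omd and Col3a1 were higher in COR at -1.59, -1.62 and -1.34, and so were Fam20c at -1.46 and Dkk3 at -2.22. Cxcl12 was higher in PF, at 77.2 and 247 CPM in PF plates 1 and 2 and 2.88 and 11.8 CPM in COR plates 1 and 2 (4.3), and was read in 8 PF and 3 COR members. Dkk1 (1.52) and Fam20b (1.56) met the rule for PF with plate ratios down to 0.02 and 0.10, so the nearest plates hardly differed. Alx1 (2.66) was read in 3 PF members and 1 COR member, and the stress gene Ddit3 (3.45) in 6 and 1, with 63.8% of its PF reads from 1 cell.

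Outside the lists, the 5 genes farthest to PF were Chrdl1 (6.49, an antagonist of bone morphogenetic proteins), Ints4 (6.01), Ubr3 (5.78), Zfp64 (5.51) and Epyc (5.48, a small proteoglycan of cartilage). They were read in 4 to 7 of 26 PF members. Those farthest to COR were Cav1 (-6.67, the caveola protein), Tmem63a (-6.25), Mbnl3 (-6.21), Nudt19 (-6.07) and Plat (-5.90, tissue plasminogen activator). Tmem63a was the most widely read of them, in 10 of 19 COR members and 0 of 26 PF members (which allows up to 11.5%), at 43.2 and 130.4 CPM on the COR plates. Cav1 was read in 3 COR members, 1 of which gave 83.5% of its reads.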

How the data were processed

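Raw read counts per gene and cell were used as deposited by the authors in 8 tables of 24015 gene symbols, 1 table for each of 2 plates of 4 tissues. Full-length cDNA of single cells had been made by SMART-seq2 and tagmented with Nextera XT, without molecular identifiers. The submitters' processing notes name mm9, STAR 2.5.3a, HTSeq, Seurat 2.3.0 and R 3.4.4 without role. Annotation and strandedness were not given in the sources used here, so overlapping genes share uncertain reads. Groups came from titles, 1 cell had conflicting labels and was a cell without Ibsp reads, and 0 columns were left without a cell. No 2 passing cells had identical counts, and members of 2 plates shared at most 2 well names. No doublet caller was run, since wells held sorted single cells.

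Reads other than Rn45s were summed by class and plate and scaled to 1000000 (CPM). Plates with at least 5 cells of each class were compared, with a pseudocount of 1 CPM, a filter of 10 CPM on the mean over the 4 plates in either class, and a call at one sign with a median of at least 1. Shares carry exact (Clopper-Pearson) 95% intervals, and a count of 0 was read as up to 3 counts. Because cells were chosen by measured reads and each tissue was 1 sample, no test was made. A gene of the transcription factor list is not reported here and was left out of that list. Members and gene lists were chosen with earlier results of these data known. Named were list genes, the 15 called genes outside the lists farthest in each direction, and the 5 farthest each way between PF and COR. TMM factors came from edgeR 4.0.16 in R 4.3.3, and all else was computed with pandas 2.3.3 and scipy 1.17.1 in Python 3.11.15. The calling steps were tested on simulated data in which noise was drawn for the sums of a class and not for cells. That test thus does not cover genes whose reads come mostly from few cells. Alternatives covered scaling, filters, pseudocount, thinning to 100000 reads, the Ibsp limit, the comparison cells, and leaving out plates or the deepest cells.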

Additional observations from a re-analysis of the deposited data

Results flagged for a closer look

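The hypertrophic chondrocyte list stood apart on PF plate 1, where the Ibsp cells exceeded the cells without Ibsp reads by 4.92 on the log2 scale, against 2.28 to 2.44 on the other 3 plates. A gap that wide in 4 values was looked for in 26 lists and found in 1, and chance alone gives about 1 in 20. On that plate Mmp13 was at 17730.2 CPM in members and at 245 CPM in the others. It was read in 5 members of that plate and not in 6, and 1 cell gave 44.6% of the Mmp13 reads of the PF members.

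The osteoclast list was lower in Ibsp cells on both PF plates (mean log2 ratio -3.83) and higher on both COR plates (mean 1.09). The difference was not tested. Only Acp5 and Mmp9 of its 7 genes reached the level required, and Calcr, Ocstamp and Dcstamp were listed at 0. Acp5 was read in 2 PF and 7 COR members and Mmp9 in 1 and 2, with 99.8% of the COR reads of Mmp9 from 1 cell. On PF plate 1 the list was at 0 CPM in members and 74.9 CPM in the others, so the size of that ratio rests on the 1 CPM added.

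The limit on Col2a1 left out 8 cells of GP plate 2 that held at least 10 Ibsp reads, and 0 cells of the other 7 plates. Sox9, the cartilage transcription factor, was read in 5 of these 8 and in 0 of the 3 members of that plate, and Acan in 6 and 1.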

How the results depend on the processing

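The 166 higher genes became 253 with TMM factors, 353 with Spp1, Col1a1, Col1a2 and Sparc left out of the total (chosen after seeing the data), 239 to 305 with a plate left out, and 6 when all 8 plates with at least 2 cells of each class had to share the sign (also chosen after seeing the data). The 1395 lower genes became 849 with those 4 genes left out, 1703 to 2283 with a plate left out, and 628 over 8 plates. All 166 higher genes were still called under both scalings, and 987 and 832 of the lower ones were, whereas 111 and 1079 were on thinning to 100000 reads, 118 and 1091 with the mean of per-cell CPM, 126 and 996 without the deepest cells, and 135 to 150 and 1166 to 1252 with a plate left out. Removing the Col2a1 limit moved the GP share of Ibsp cells to 16.7%. Among summed lists, leaving out the 4 abundant genes moved receptors to 0.65, chondrocyte genes to 0.023, glycolysis to 0.12, transcription factors to 1.104, secretory genes to 0.42, progenitor genes to -1.003 and type I collagen and its assembly to 1.30. TMM factors moved chondrocyte genes to -0.038, glycolysis to -0.017, secretory genes to 0.24 and collagen to 1.24. The mean of per-cell CPM gave -0.52 for chondrocyte genes and 0.96 for the sorted proteins, and without the deepest cell of each class chondrocyte genes stood at -0.26. Ibsp cells from 100 reads gave -1.59 for fibroblast genes. A pseudocount of 10 CPM gave 1.16 for the adipocyte list. Over 8 plates the values were 1.02 for adipocyte, -0.74 for chondrocyte, -2.12 for stress, -3.73 for tenocyte and 1.00 for collagen genes, and Ier2 turned to -0.44. The late osteoblast list stayed between 4.32 and 5.33 and the median per cell between 3 and 4 genes. Its called genes Bglap, Bglap2, Ifitm5, Dmp1 and Smpd3 each lost the call over 8 plates. Their medians there were 5.35, 4.78, 3.02, 10.28 and 3.52 in that order. The ratios of members to other cells were already taken within plates. No paired analysis was possible because, between PF and COR, plate numbers pair no samples and the values come from no test. Members of 4 SAG and GP plates numbered 12, too few to compare, and the number of cells limits the precision of every share.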

Other observations

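Sgms2, a sphingomyelin synthase of bone, was read in 45 of 57 Ibsp cells (78.9%, 66.1% to 88.6%) and in 80 of 252 cells without Ibsp reads (31.7%, 26% to 37.9%), at a median of 712 CPM per Ibsp cell. It belonged to no list and was chosen after its values were seen. Thinned to 100000 reads it was read in 83% and 31.4%. Bglap3, the third osteocalcin gene, was read in 8 Ibsp cells and 1 other cell at levels under the filter, and its sequence is related to that of Bglap and Bglap2.

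Wif1, a secreted Wnt inhibitor, was read in 42 of 57 Ibsp cells (73.7%) and in 65 of 252 others (25.8%), yet its summed level was lower in Ibsp cells on PF plate 1 (log2 ratio -1.25) and higher on the other 3 plates (0.50 to 3.78), so it was not called. Panx3, a channel protein of osteoblasts and hypertrophic chondrocytes, was read in 35 and 39 cells.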
